A study of Homo sapiens with 6 samples.

Results

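DDIT4, DEPTOR and 8 further genes that set the activity of mTOR are described here: SESN2, MTOR, TSC1, TSC2, RHEB, MLST8, AKT1 and AKT2. These 10 genes were chosen by pathway with the measured enzastaurin ratios of the same arrays in view, in which DDIT4 was among the highest and DEPTOR among the lowest. Every probe set whose platform annotation gives exactly 1 symbol was used. That gave 17 probe sets for 9 genes, out of 19064 probe sets for 11963 genes in the whole series. SESN2 had no probe set of this kind and was not analysed here. Since the treatment ratios chose the genes, these ratios are given as a description with no test.

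RNA was measured in MM.1S, an established human multiple myeloma line. The groups were MM.1S cells treated with enzastaurin, which inhibits the beta isoform of protein kinase C, and untreated MM.1S cells, each taken at 3, 6 and 12 h. Each treatment and time had 1 array, 6 arrays in all. The dose, the vehicle and any serum or drug common to all cultures were not stated in the labels. MM.1S is a single line, so the arrays describe 1 tumour's derivative, and the labels do not state whether the 6 RNA samples were from separate cultures.

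mTOR is a kinase that works in a pair of complexes, mTORC1 and mTORC2, and couples growth to nutrients, energy and growth factors. AKT relieves the brake that the TSC1 and TSC2 complex puts on RHEB, the small GTPase that switches mTORC1 on at the lysosome. DDIT4, also called REDD1, is a stress-induced inhibitor that acts through TSC1 and TSC2, the sestrins block the amino acid signal, and DEPTOR binds both mTOR complexes and restrains them. In multiple myeloma DEPTOR is known for high expression, above all in tumours in which a translocation activates MAF, and MM.1S carries a translocation of MAF.

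The stretch before the start of DDIT4 is shown because DDIT4 had the highest ratios of the 10 genes. The 3 shorter stretches are of a partner gene, TSC2, and of RRAGC and SLC3A2, which are described further on. In each of these the same search found letters. It also found letters in RHEB, of which no stretch is shown. The sequences are RefSeq promoter windows of build GRCh38.p14, each written 5′ to 3′ on the gene's own strand, and capitals mark the letters found. Positions count from 0 at the annotated gene start, with negative numbers before it. The stretches lie at chr10:72273674-72273923 on the plus strand (DDIT4), chr16:2047847-2047906 on the plus strand (TSC2), chr1:38859852-38859911 on the minus strand (RRAGC) and chr11:62881719-62881748 on the plus strand (SLC3A2, just inside the start of 1 of its 3 windows).
DDIT4: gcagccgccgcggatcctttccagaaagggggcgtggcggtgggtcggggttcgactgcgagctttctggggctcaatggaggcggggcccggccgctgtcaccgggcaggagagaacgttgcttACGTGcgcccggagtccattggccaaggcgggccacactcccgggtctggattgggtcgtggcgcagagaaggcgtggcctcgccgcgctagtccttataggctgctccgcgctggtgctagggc
TSC2: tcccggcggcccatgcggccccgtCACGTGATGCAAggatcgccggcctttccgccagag
RRAGC: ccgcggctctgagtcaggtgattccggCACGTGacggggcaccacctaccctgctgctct
SLC3A2: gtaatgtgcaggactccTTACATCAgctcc

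The letters searched, on both strands of the 300-base windows, were TGATGNAA (the composite element known to be read by ATF4 and CHOP), TGACGTCA (the cAMP response element), ACGTG (the core of the hypoxia response element), CACGTG (an E-box, which contains ACGTG) and GTAAACA (a FOXO element). Among 35116 RefSeq promoter windows they occurred in 3.62%, 1.85%, 21.4%, 7.26% and 3.42%, in that order. DDIT4 had ACGTG at position -125, and none of the other letters. In 1 of its 2 windows TSC2 had CACGTG at position -114 and, overlapping it, TGATGNAA at position -110. RRAGC had CACGTG at position -112, and SLC3A2 had TGATGNAA on the opposite strand at position 37. RHEB had ACGTG on the opposite strand at position -81. In the windows listed for SESN2, MTOR, TSC1, AKT1, AKT2, DDIT3, TRIB3 and SESN1 none of these letters were found, which says only that they are not in those windows. No window of DEPTOR or MLST8 was searched.

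The arrays were alike in scale, with median intensities of 62.2 to 67.6. They were not alike in ribosomal RNA: the mean log2 intensity of 6 ribosomal RNA control probe sets was 9.72, 5.70 and 5.31 at 3, 6 and 12 h with enzastaurin, against 5.51, 10.94 and 9.24 in untreated cells. The log2 ratio of the 3′ to the 5′ ACTB control, a sign of RNA integrity, was 2.0, 0.57 and 0.86 with enzastaurin, against 1.89, 1.16 and 1.60 untreated. The same ratio of the GAPDH control differed less, at 0.23, -0.11 and 0.24 with enzastaurin, against 0.28, 0.23 and 0.30 untreated. Of 9 plasma cell markers 8 passed the intensity filter, and all of 6 T and NK cell, 4 monocyte and 3 epithelial markers stayed below it, with the monocyte gene LYZ at or near 0. The summed plasma cell intensity ran from 12831 to 16790 with enzastaurin and from 16773 to 21547 untreated, and its part in the ratios below was not tested. The single markers did not move together. At 12 h TNFRSF17 was 528 with enzastaurin against 4474 untreated, while XBP1, the brightest, was 6189 against 5177. COL1A1 and COL1A2 of 3 stromal markers (90.9 to 145 and 73.2 to 123 over the 6 arrays) and the erythroid gene HBB (121 to 419) passed the filter. In bulk RNA, fewer cells of a kind and less RNA per cell cannot be told apart.

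The filter kept probe sets in the upper 50% of mean log2 intensity, a geometric mean of 63.3 or more, and kept the brightest probe set of each gene for the tests, 6838 genes in all. Of the 17 probe sets 8 passed, for 6 genes: DDIT4, DEPTOR, TSC1, TSC2, RHEB and MLST8. MTOR missed the filter narrowly at 61.9, just outside, and TSC2 was just inside at 74.7. AKT1 and AKT2 were dim on every array, and their ratios are less certain. Each ratio below is the log2 ratio of enzastaurin over untreated cells at 1 time, and each SD is over the 3 times, which are not replicates of one another.

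DDIT4, the stress-induced inhibitor, was higher with enzastaurin at each of the 3 times and lower at the later times in both arms. DDIT4 (202887_s_at) had intensities of 905, 192 and 218 at 3, 6 and 12 h with enzastaurin, against 245, 50.8 and 82.7 in untreated cells. The 3 h array was by far the highest of each arm, and the arms overlapped because untreated cells at 3 h exceeded enzastaurin cells at 6 and 12 h. The log2 ratios were 1.89, 1.92 and 1.40, or 3.70-fold, 3.79-fold and 2.63-fold, with a mean of 1.73 ± 0.29 (SD, n = 3). Among the 6838 genes DDIT4 ranked 7th from the top at 3 h, 36th at 6 h and 108th at 12 h.

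Only 7 of the 6838 genes (0.102%) were at least 2-fold higher at all 3 times, and DDIT4 was 1 of them. Because DDIT4 was chosen with these ratios in view, this is description only. Of the 6 filtered genes DDIT4 alone was at least 2-fold higher, at 3 h (background 1.89%), at 6 h (5.6%) and at 12 h (3.88%). DDIT4 had the same size of ratio with any 1 pair of arrays left out, with means of 1.64 to 1.90. Ribosomal RNA was higher with enzastaurin at 3 h and higher in untreated cells at 6 and 12 h, and its part in the DDIT4 ratios was not tested.

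**Figure D1:**
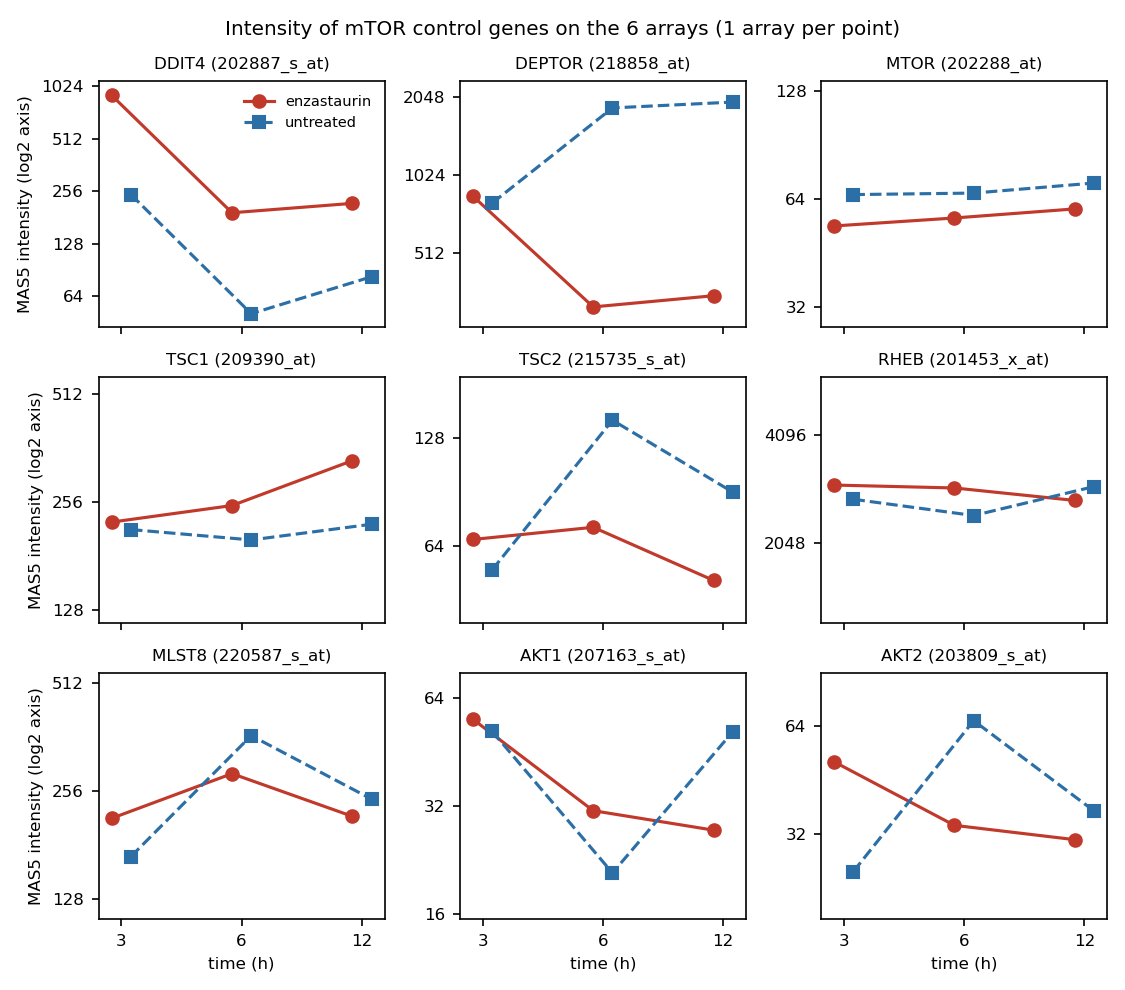
MAS5 intensity (log2 axis, ranges differ between panels) against time in h for the brightest probe set of each of 9 genes, 1 array per point, with enzastaurin in red circles and untreated cells in blue squares. DDIT4 lies above its untreated array at each time (905 against 245 at 3 h), while DEPTOR starts level at 3 h and is then at 319 and 352 with enzastaurin, against 1859 and 1957 untreated.

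The time course of DDIT4 was not used in choosing the genes and could be tested. Over both arms together, DDIT4 averaged a log2 intensity of 7.07 at 12 h, against 8.88 at 3 h, a difference of -1.81 with a standard error of 0.36 (limma, unadjusted p = 0.00039). This was the smallest p-value of the 6838 genes, yet its adjusted p was 0.999 by the Benjamini-Hochberg method, and the difference was not called. Such p-values rest on how these 6 arrays scatter, and that scatter can be technical. Within enzastaurin cells DDIT4 differed by -2.23 at 6 h and -2.06 at 12 h from its 3 h level, and within untreated cells by -2.27 and -1.56. The untreated difference at 6 h exceeded in size the treatment ratio of DDIT4 at each time, with 1 array behind each value. The 3′ to 5′ ACTB ratio had the same order of times within each arm. Its log2 values at 3, 6 and 12 h were 2.0, 0.57 and 0.86 with enzastaurin, and 1.89, 1.16 and 1.60 untreated. The GAPDH ratio was instead highest at 12 h in both arms (0.24 and 0.30). The part of RNA integrity in the DDIT4 time course was not tested. No gene was called for 12 h against 3 h (0%, and 148 genes at an unadjusted p under 0.05 with limma).

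DEPTOR, the inhibitor that binds both mTOR complexes, was level at 3 h and lower with enzastaurin at 6 and 12 h. DEPTOR (218858_at) had intensities of 851, 319 and 352 at 3, 6 and 12 h with enzastaurin, against 800, 1859 and 1957 in untreated cells. The 3 h arrays of both arms lay together in the middle, the later enzastaurin arrays were the lowest and the later untreated arrays the highest. The arms overlapped only through the 3 h arrays. The log2 ratios were 0.09, -2.54 and -2.47, so DEPTOR was 5.83-fold lower at 6 h and 5.56-fold lower at 12 h.

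The gap in DEPTOR was made by both arms. From 3 h, enzastaurin cells differed by -1.42 at 6 h and -1.27 at 12 h in log2 intensity, and untreated cells by 1.22 and 1.29. Averaged over both arms, DEPTOR therefore hardly differed between 12 h and 3 h (0.01 with a standard error of 0.55, limma adjusted p = 0.999), which says nothing of either arm alone. DEPTOR ranked 8th from the bottom of 6838 genes at 6 h and 30th at 12 h. It was the only 1 of the 6 filtered genes that was at least 2-fold lower at 6 h (background 3.22%) or at 12 h (10.4%), and none was at 3 h (2.65%). At both later times together 127 genes (1.86%) were at least 2-fold lower.

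The mean DEPTOR ratio over 3 times, -1.64 ± 1.5 (SD, n = 3), stands for no time in particular. It was -2.51 without the 3 h pair, -1.19 without the 6 h pair and -1.23 without the 12 h pair. The 2 untreated arrays with high DEPTOR are also those with high ribosomal RNA (10.94 and 9.24), and the 2 enzastaurin arrays with low DEPTOR have low ribosomal RNA (5.70 and 5.31). At 3 h, where the order of ribosomal RNA was turned (9.72 with enzastaurin and 5.51 untreated), DEPTOR was level. The part of ribosomal RNA carry-over in the DEPTOR ratios was not tested. MAF itself, the transcription factor tied to high DEPTOR in myeloma, had 3 h, 6 h and 12 h log2 ratios of -0.52, 0.14 and -0.14 on its brightest probe set (MAF, adjusted p = 0.988 by limma). Any part of MAF in the DEPTOR ratios was not tested.

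**Figure D2:**
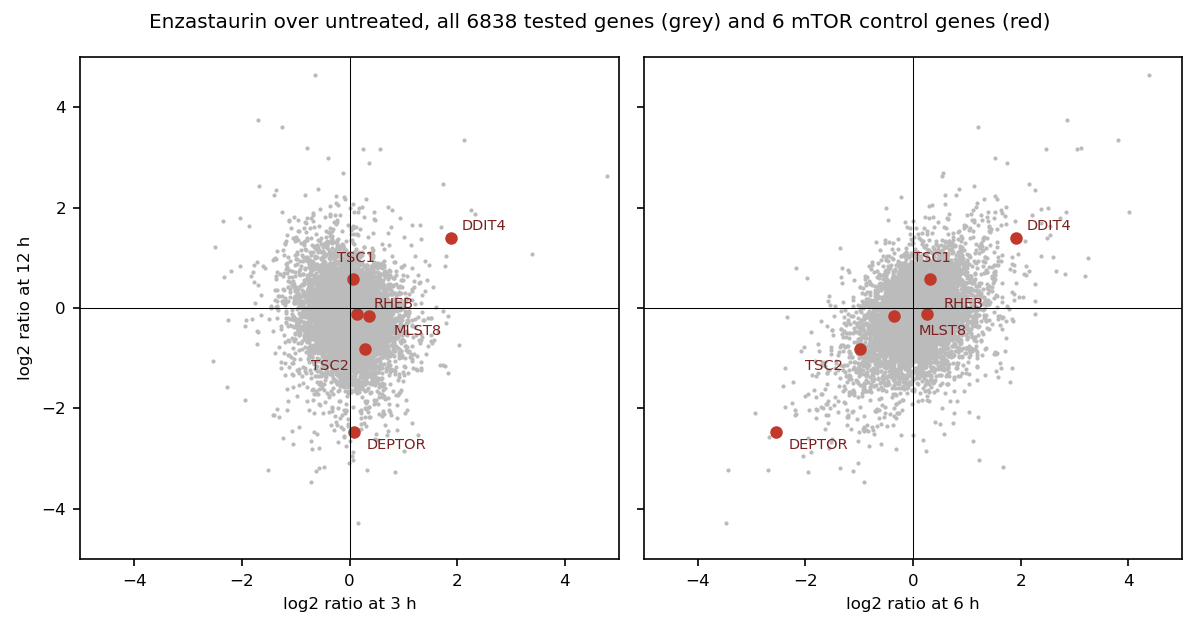
Log2 ratio of enzastaurin over untreated cells at 12 h (vertical axis) against the ratio at 3 h (left) and at 6 h (right), for all 6838 tested genes in grey and the 6 filtered mTOR control genes in red. DDIT4 is in the upper right of both panels (1.89 at 3 h, 1.92 at 6 h, 1.40 at 12 h), and DEPTOR is at 0.09 on the 3 h axis but at -2.54 and -2.47 on the other axes.

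TSC1 and TSC2 form the complex that turns RHEB off. TSC1 (209390_at) had 225, 250 and 334 at 3, 6 and 12 h with enzastaurin, against 214, 201 and 222 in untreated cells. Every enzastaurin array was above every untreated array, though at 3 h by a small margin. The log2 ratios of TSC1 were 0.07, 0.32 and 0.59, with a mean of 0.33 ± 0.26 (SD, n = 3), and the 12 h ratio was 1.5-fold.

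TSC2 (215735_s_at) had 66.6, 72.0 and 51.2 with enzastaurin, against 54.8, 143 and 90.2 untreated. The untreated 6 h and 12 h arrays were the highest, and the arms overlapped. The log2 ratios were 0.28, -0.99 and -0.82 (mean -0.51 ± 0.69, SD, n = 3), the same order of times as in DEPTOR and likewise on arrays that differ in ribosomal RNA, whose part was not tested. A second TSC2 probe set (215624_at) was dimmer still, with 11.6, 21.6 and 7.53 with enzastaurin against 30.7, 23.2 and 25.5 untreated, and a mean log2 ratio of -1.09 ± 0.87 (SD, n = 3). It was lower on every enzastaurin array but far below the filter, and the 2 probe sets did not share an order of times.

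RHEB, the GTPase that switches mTORC1 on, was bright, with ratios near 0. RHEB (201453_x_at) had 2978, 2923 and 2699 at 3, 6 and 12 h with enzastaurin, against 2719, 2450 and 2950 in untreated cells. The arms overlapped, and the log2 ratios were 0.13, 0.25 and -0.13 (mean 0.09 ± 0.20, SD, n = 3). The other 4 RHEB probe sets had mean log2 ratios of 0.13 (213404_s_at), -0.05 (213409_s_at), 0.09 (201451_x_at) and -0.31 (201452_at), the last 2 below the filter. In all 5 the arms overlapped.

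MTOR, the kinase itself, had 2 dim probe sets that pointed apart. The brighter 1 (202288_at) had 53.8, 56.6 and 59.97 at 3, 6 and 12 h with enzastaurin, against 65.7, 66.4 and 70.8 in untreated cells. All 3 enzastaurin arrays were below all untreated arrays, with log2 ratios of -0.29, -0.23 and -0.24 (mean -0.25 ± 0.03, SD, n = 3), 1.19-fold lower on average. The other (215381_at) had 29.1, 39.5 and 46.9 with enzastaurin against 33.0, 31.2 and 31.5 untreated, and a mean log2 ratio of 0.24 ± 0.39 (SD, n = 3).

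MLST8 is the subunit shared by both mTOR complexes. MLST8 (220587_s_at) had 215, 286 and 218 at 3, 6 and 12 h with enzastaurin, against 168, 365 and 243 in untreated cells. The 6 h array was the highest of each arm and the arms overlapped. The log2 ratios were 0.35, -0.35 and -0.16 (mean -0.05 ± 0.36, SD, n = 3).

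AKT1 and AKT2, the kinases that relay insulin and growth factor signals to TSC2, were below the filter on all 4 of their probe sets. AKT1 (207163_s_at) had 55.8, 31.0 and 27.4 at 3, 6 and 12 h with enzastaurin, against 51.6, 20.8 and 51.5 in untreated cells, with a mean log2 ratio of -0.07 ± 0.76 (SD, n = 3). AKT2 (203809_s_at) had 50.8, 33.8 and 30.9 with enzastaurin, against 25.2, 66.2 and 37.1 untreated, with a mean of -0.07 ± 1.01 (SD, n = 3). Both had a ratio of either sign depending on the time. The other AKT2 probe sets averaged -0.14 (203808_at) and -1.06 with an SD of 2.73 (211453_s_at, whose intensities of 0.812 to 30.2 carry little signal).

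**Figure D3:**
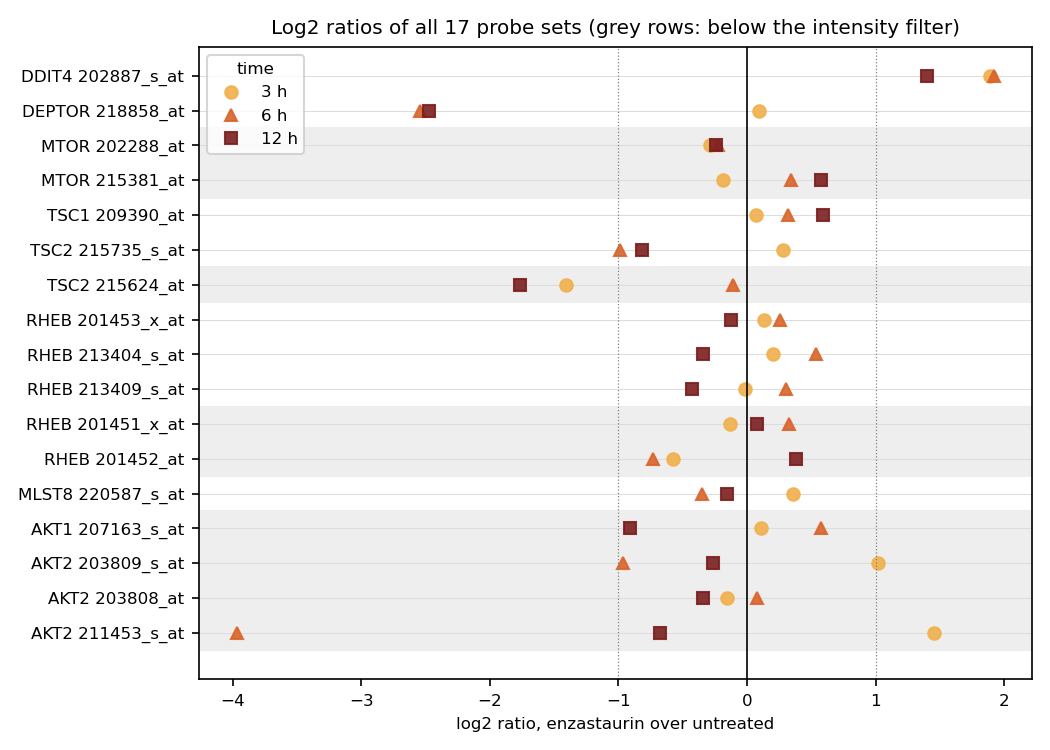
Log2 ratio of enzastaurin over untreated cells (horizontal axis) for all 17 probe sets, with 1 mark for each of 3, 6 and 12 h, grey bands for probe sets below the filter and dotted lines at 2-fold. DDIT4 is beyond the right line at all times and DEPTOR beyond the left line at 6 and 12 h, while the brighter MTOR probe set lies between -0.29 and -0.23.

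Over the 17 probe sets, 1 had every enzastaurin array above every untreated array (TSC1) and 2 had every one below (MTOR 202288_at and TSC2 215624_at). Over all 19064 probe sets this held for 5.09% and 5.47%, and over the 6838 tested genes for 3.47% and 7.18%. The median log2 ratio of all tested genes was -0.04, 0.06 and -0.18 at 3, 6 and 12 h, so a 12 h ratio such as that of MLST8 (-0.16) lay at the middle of all genes. In 12 h against 3 h the log2 differences of TSC1, TSC2, RHEB and MLST8 were 0.31, 0.17, -0.01 and 0.27 (limma adjusted p = 0.999 in each).

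A list of 134 further mTOR pathway genes in 7 roles was set beside these genes, of which 106 had a probe set and 92 were tested. None was called for enzastaurin against untreated cells (0 higher and 0 lower at an adjusted p under 0.05 with limma, where 4 of all 6838 genes, 0.0585%, were called). At an unadjusted p under 0.05 there were 11, 7 higher and 4 lower, or 12.0% of those tested, where all genes gave 370, or 5.41%. The list was chosen with earlier results of these data known, so its shares beside those of all genes are description only. The median mean log2 ratio of the list was -0.05, equal to that of all genes at -0.05. In 6 list genes (6.52%) every enzastaurin array was above every untreated array, and in 8 (8.70%) every one was below. All tested genes gave 3.47% and 7.18%. Without the 3 h pair 247 of all 6838 genes were called (3.61%), and with them 6 of the 92 list genes: DDIT3, SGK1, SLC3A2 and LAMTOR3 with a ratio above 0, and SLC7A5 and LAMTOR2 with a ratio below 0.

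Of 15 upstream inhibitors tested, 7 had a mean ratio above 0 and 8 below. TRIB3, a pseudokinase known to bind AKT and to be induced under amino acid and endoplasmic reticulum stress, had 756, 426 and 716 at 3, 6 and 12 h with enzastaurin, against 390, 268 and 405 in untreated cells, with a mean log2 ratio of 0.81 and a standard error of 0.28 (limma adjusted p = 0.693). Its arms did not overlap. SESN1, a sestrin that blocks the amino acid signal, had 400, 285 and 287 with enzastaurin, against 454, 500 and 634 untreated, with a mean of -0.71 and a standard error of 0.31 (adjusted p = 0.882), so SESN1 and DDIT4 lay on opposite sides of 0. The arms of SESN1 did not overlap either. PHLPP2, a phosphatase of AKT, averaged 0.42, and 0.01 on a dimmer probe set below the filter. TXNIP, which is known to stabilise DDIT4 protein, averaged 0.12 with ratios of -0.56, 0.96 and -0.02. The other 2 TXNIP probe sets averaged -0.17 (with ratios of 0.48, -0.53 and -0.45) and -0.01, so the TXNIP probe sets did not share a direction.

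All 6 tested subunits and assembly factors of the mTOR complexes had a mean ratio below 0, with a median of -0.25, and none was called. The median of all tested genes was also below 0, at -0.05. Only 2 of the 6, MAPKAP1 and TTI1, were below 0 at all 3 times, and the median of the 6 at 3 h was 0.02. MAPKAP1, a subunit of mTORC2, averaged -0.31, and TTI1, a factor that helps mTOR assemble, -0.19, with standard errors of 0.30 and 0.29. DDIT4L, SESN3, TBC1D7, AKT1S1, RPTOR and RICTOR had no probe set with 1 symbol and were not analysed here. Among 12 tested genes of the PI3K and AKT input, 5 were above 0 and 7 below: PIK3CB averaged -0.18, IGF1R -0.25, GRB10 0.25 and PDPK1, the kinase that activates AKT, 0.05. A second IGF1R probe set past the filter averaged -0.21 and a second for PDPK1 0.02, and a dimmer one for PIK3CB averaged 0.33.

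Of 16 tested genes of lysosomal amino acid sensing, 6 were above 0 and 10 below. SLC3A2, the heavy chain shared by several amino acid transporters, had 985, 1011 and 1450 at 3, 6 and 12 h with enzastaurin, against 398, 526 and 458 in untreated cells, with a mean log2 ratio of 1.30 and a standard error of 0.28 (limma adjusted p = 0.226). SLC7A5, the light chain that pairs with SLC3A2 to carry leucine, had ratios of 0.36, -1.72 and -1.97, so the partners diverged at 6 and 12 h. RRAGC, a Rag GTPase that brings mTORC1 to the lysosome, had 977, 701 and 1105 with enzastaurin, against 551, 469 and 583 untreated, with a mean of 0.78 and a standard error of 0.27 (adjusted p = 0.691). In both SLC3A2 and RRAGC every enzastaurin array was above every untreated array. ITFG2, a subunit of the KICSTOR complex, averaged 0.39, and 0.07 on a second probe set past the filter.

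Among 19 tested targets of mTORC1, 8 were above 0 and 11 below. RB1CC1, a scaffold of the autophagy kinase complex that mTORC1 holds in check, had 360, 299 and 263 at 3, 6 and 12 h with enzastaurin, against 513, 577 and 565 in untreated cells. Its arms did not overlap. It averaged -0.85 with a standard error of 0.29 (limma adjusted p = 0.683), and a second RB1CC1 probe set averaged -0.75. The translation repressor EIF4EBP1 had ratios of 0.61, -0.42 and 0.80 (mean 0.33), HIF1A averaged 0.32, and the kinase RPS6KB1 -0.04, whose sign turned under 2 other scalings, and -0.20 on a second probe set. EIF4B averaged -0.21 on its brightest probe set and 0.24 and 0.11 on 2 others.

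Among 8 tested targets of mTORC2 and AKT, 2 were above 0 and 6 below. SGK1, a kinase of the AKT family that mTORC2 activates, had 677, 1862 and 3297 at 3, 6 and 12 h with enzastaurin, against 568, 336 and 369 in untreated cells. It was near its untreated level at 3 h and far above it later, with a mean log2 ratio of 1.96 and a standard error of 0.45 (limma adjusted p = 0.285). NDRG1, a substrate of SGK1, averaged -0.31 and FOXO3, which AKT keeps out of the nucleus, -0.29.

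Of 16 tested genes listed as regulators of DDIT4 or DEPTOR, through transcription, stress signalling or protein turnover, 8 were above 0 and 8 below. DDIT3, which encodes the stress factor CHOP, had 437, 148 and 357 at 3, 6 and 12 h with enzastaurin, against 91.5, 68.5 and 92.7 in untreated cells, with a mean log2 ratio of 1.77 and a standard error of 0.32 (limma adjusted p = 0.132). CEBPB, a partner of ATF4 and CHOP, averaged 0.95 with a standard error of 0.33 (adjusted p = 0.707). ARNT, the partner of HIF1A, averaged -0.43 on its brightest probe set and 0.68 and 0.31 on 2 dimmer ones.

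**Figure D4:**
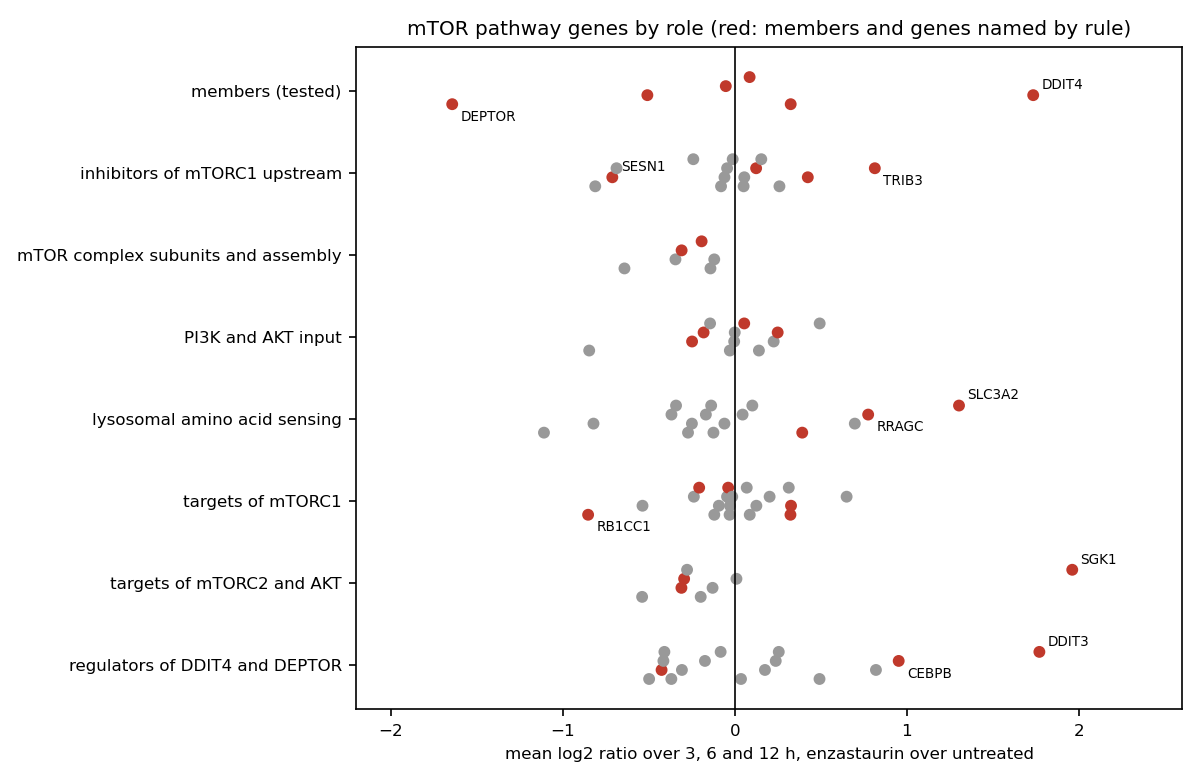
Mean log2 ratio of enzastaurin over untreated cells over 3, 6 and 12 h (horizontal axis) for the 6 filtered mTOR control genes in the top row and 92 further pathway genes by role, 1 point per gene, red for the 10-gene set and for genes named by rule. DDIT4 (1.73), DDIT3 (1.77) and SGK1 (1.96) stand at the right and DEPTOR (-1.64) at the left. The means of all 6 complex subunits and assembly factors are left of 0, though only 2 of these genes were below 0 at all 3 times.

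The genes whose profile over the 6 arrays was most like that of DDIT4 were searched among 1193 genes with an SD of log2 intensity of at least 0.5, with no test, since the 6 arrays share treatment, time and scaling. The highest Pearson r were those of DUSP1 (0.96), BCL2L11 (0.93), IFRD1 (0.91), ELF4 (0.90) and SPATA2L (0.90). DUSP1, a phosphatase of MAP kinases, had 293, 182 and 168 at 3, 6 and 12 h with enzastaurin, against 140, 86.3 and 108 in untreated cells. BCL2L11, which encodes the death-promoting protein BIM, had 468, 148 and 98.9 with enzastaurin, against 248, 58.5 and 91.3 untreated. Both were highest at 3 h with enzastaurin and lowest at 6 h untreated, as DDIT4 was.

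For DEPTOR the 5 genes were SOX2 (0.99), PLCL2 (0.99), RHOQ (0.99), NBEAL2 (0.98) and RASGRP3 (0.98). RASGRP3, an exchange factor that diacylglycerol activates, had 509, 261 and 238 at 3, 6 and 12 h with enzastaurin, against 454, 1558 and 1284 in untreated cells. RHOQ, a small GTPase of the CDC42 kind, had 819, 332 and 381 with enzastaurin, against 861, 1269 and 1545 untreated. In these genes too the 3 h arrays were level, the later enzastaurin arrays lowest and the later untreated arrays highest. DDIT4 and DEPTOR had an r of -0.49 with each other over the 6 arrays.

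**Figure D5:**
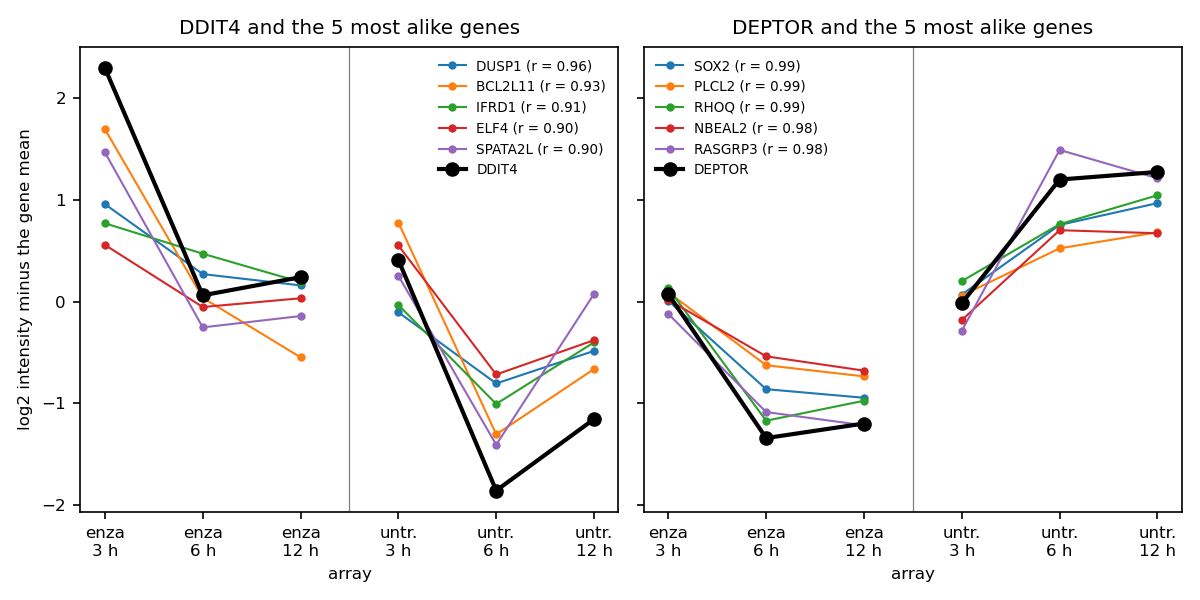
Log2 intensity minus the gene's mean over the 6 arrays (vertical axis) for DDIT4 (left, black) and DEPTOR (right, black), each with the 5 genes of highest Pearson r in colour, with the 3 enzastaurin arrays left of the 3 untreated arrays. DDIT4 and its 5 genes are highest at 3 h with enzastaurin, though ELF4 is level between the arms at 3 h (log2 ratio 0.005). DEPTOR and its 5 genes are level at 3 h and apart at 6 and 12 h.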

How the data were processed

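The table deposited by the authors holds a linear intensity for each probe set, computed with MAS5 (per the submitters' processing notes) from biotin-labelled cRNA hybridised to Affymetrix arrays. The MAS5 version, scaling target and detection calls are not stated in the labels. All 6 columns were matched to samples through their labels, with group and time taken from the titles. Of 22277 probe sets, 62 were controls, 19064 were paired with 1 gene symbol, 1043 with several and 2108 with none, and 19052 of the 19064 had an Entrez identifier listed by RefSeq (GRCh38.p14).

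Intensity was floored at 1 (22 to 39 exact zeros per array) and log2 transformed, the authors' scaling was kept, and the upper 50% of probe sets by mean log2 intensity, brightest per gene, was tested. The treatment fit used limma 3.58.1 in R 4.3.3 (lmFit, eBayes with an intensity trend) with time as a block, and the fit of 12 h against 3 h the same additive model. Benjamini-Hochberg adjustment ran over 6838 genes, and calls needed an adjusted p under 0.05. A single time has 1 array on each side and so no test, and there genes past 2-fold were counted. The fits were tested on simulated data. Array number limits the precision.

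The 10 genes, the pathway list and the marker lists were chosen with earlier results of these data known. Named pathway genes were a fixed set of regulators, every list gene past the test, and per role the 3 largest mean ratios of 1 sign at all 3 times. LAMTOR2, LAMTOR3, SLC7A5 and MAF were named after their values were seen. Alternatives were 3 other scalings, a floor of 16, no filter, other probe set rules, no intensity trend, no time block and leaving out each pair of arrays. Promoter windows of 300 bases came from RefSeq.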

Additional observations from a re-analysis of the deposited data

Results flagged for a closer look

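Among the 6 filtered mTOR control genes and the 92 pathway genes, 4 (4.08%) had an enzastaurin ratio (log2, over untreated cells) of 1 sign at 3 h and the other at both 6 h and 12 h, with at least 2-fold at both later times. Over all 6838 tested genes this held for 146 (2.14%). The 6 genes were chosen with these ratios in view and the list with earlier results known, so these shares are description only. The difference between times was not tested, since each treatment had 1 array per time. For DEPTOR, the inhibitor bound to both mTOR complexes, the mean ratio of 6 h and 12 h minus the 3 h ratio was -2.60. For SLC7A5, the leucine transporter chain, it was -2.2. LAMTOR2 and LAMTOR3, which encode 2 subunits of the Ragulator complex that anchors mTORC1 at the lysosome, went opposite ways, at -1.47 for LAMTOR2 and 1.79 for LAMTOR3. LAMTOR2 had intensities of 624, 240 and 238 at 3, 6 and 12 h with enzastaurin, against 560, 523 and 672 in untreated cells. LAMTOR3 had 468, 797 and 878 with enzastaurin, against 660, 268 and 434 untreated. The ribosomal RNA controls turned between the same times, with mean log2 intensities of 9.72, 5.70 and 5.31 at 3, 6 and 12 h with enzastaurin, against 5.51, 10.94 and 9.24 untreated, and their part in these 4 genes was not tested.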

How the results depend on the processing

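Of 119 values of the 17 probe sets under other settings, 117 stayed within 1 SD of the value given, and 13, all in RHEB, MLST8, AKT1 and AKT2, had the other sign. Leaving out a pair cannot move a mean by as much as the SD of the same ratios. Those values therefore had to stay within it, and only the other scalings and the floor could exceed it. The 2 values beyond 1 SD were those of the brighter MTOR probe set, at -0.19 with equal medians over the kept genes and -0.29 with quantile normalization. DDIT4 ranged from 1.64 to 1.90 and DEPTOR from -2.51 to -1.19 when each pair of arrays was left out. Among all genes, 4 were called, against 1 with equal medians over all probe sets, 1 with no filter, 0 with no intensity trend (360 at an unadjusted p under 0.05), 2 with no time block, and 0 to 247 when a pair was left out, the 247 without the 3 h pair. In the pathway list 0 were called, and 0 to 6 when a pair was left out, the 6 without the 3 h pair. No gene was called for 12 h against 3 h under any setting run.

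For 24 named pathway genes, 278 of 288 values kept their sign and side of the threshold. Without the 3 h pair SLC3A2 (1.30), SGK1 (2.82) and DDIT3 (1.53) passed it, at limma adjusted p of 0.020, 1.8e-05 and 0.025. That fit left each gene 1 degree of freedom of its own, beside 16.9 borrowed from all genes. These p-values therefore rest mostly on the pooled scatter. At 6 and 12 h ribosomal RNA was higher in untreated cells, and its part in these values was not tested. RPS6KB1 turned sign at 0.024 (equal medians over the kept genes) and 0.029 (quantile normalization) and ranged from -0.30 to 0.17 without a pair, EIF4B was 0.28 as a median over probe sets, and without a pair TXNIP ranged from -0.29 to 0.47 and PDPK1 from -0.072 to 0.17. The cause was not tested. With equal medians over the kept genes the median of all genes at 12 h was 0.02, against -0.18 as deposited. The labels pair the arrays by time, and time was the block in the values given, with no other replicate numbers to pair on. Dim probe sets of MTOR, AKT1 and AKT2 limit what can be read from them.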
